A study of Mus musculus with 6 samples.

Results

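Described here are 10 genes of antigen presentation by major histocompatibility complex (MHC) class II. They are the antigen-presenting chains H2-Aa, H2-Ab1 and H2-Eb1, the invariant chain Cd74, the DM chains H2-DMa, H2-DMb1 and H2-DMb2, the DO chains H2-Oa and H2-Ob, and the transactivator Ciita. They were taken by gene identifier, 1 row each, out of 38924 genes in the table. They had been chosen by their values in the Cre comparison itself, where most stood lower in the Cre-positive libraries, so their differences between the groups are given as a description, without a test.

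RNA was sequenced from CD49f-positive mouse epidermal cells in 6 libraries. The cells were sorted from skin by CD49f, the integrin alpha 6 chain through which basal keratinocytes hold on to the basement membrane. All 6 libraries came from Rnaseh2b flox/flox mice. The 3 Cre-positive libraries also carried K14-Cre, a recombinase under the keratin 14 promoter of basal keratinocytes. The 3 Cre-negative libraries carried the floxed alleles without the recombinase. Strain and age are not in the labels used here, and it is not stated there whether each replicate is an animal of its own. P-values given below therefore measure the spread between these libraries, which may be partly technical. Rnaseh2b, the targeted subunit of the enzyme RNase H2, had 172, 90 and 69 counts in Cre-positive replicates 1, 2 and 3 and 543, 504 and 570 in the Cre-negative replicates. The library totals ran from 22948779 to 31718094 counts. Krt14, a keratin of basal keratinocytes, was at 4601 to 5851 CPM (counts scaled to the size of the library) in the 6 libraries. Cre-positive replicate 3 stood apart: the chi-square per degree of freedom over genes was 63.7 and 45.6 against the other Cre-positive libraries and 13.7 between those. Both sexes occurred in each group, as read from Xist and Y-linked genes, with Cre-positive replicate 3 and Cre-negative replicates 1 and 3 female.

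An MHC class II molecule is a pair of an alpha and a beta chain that shows peptides from the endosome to CD4-positive T cells. The invariant chain Cd74 fills the groove of the new pair and guides it to the endosome, where DM exchanges the remnant of Cd74 for a peptide and DO restrains DM. Ciita binds no DNA itself and acts through RFX, NF-Y and CREB proteins that sit on the X and Y boxes of class II promoters. In resting epidermis the Langerhans cells carry class II, while keratinocytes make it after exposure to interferon-gamma.

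The promoters of 7 of the 10 genes were present in the RefSeq table of build GRCm38.p6, and 3 windows are shown because H2-Aa and H2-Eb1 differed in their values and H2-Ob was almost without counts. Each window spans bases 130 to 11 before the RefSeq start, 5′ to 3′ on the strand of the gene. Capitals mark the Y box (CTGATTGG, or only its core ATTGG in H2-Ob), which NF-Y binds, and the X2 box (TGACGTCA), which CREB proteins bind. The windows are H2-Aa at chr17:34287834-34287953 on the minus strand, H2-Eb1 at chr17:34305737-34305856 on the plus strand and H2-Ob at chr17:34238775-34238894 on the plus strand.
H2-Aa: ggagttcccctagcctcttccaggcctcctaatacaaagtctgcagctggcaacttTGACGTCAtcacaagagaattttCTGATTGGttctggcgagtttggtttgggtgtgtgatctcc
H2-Eb1: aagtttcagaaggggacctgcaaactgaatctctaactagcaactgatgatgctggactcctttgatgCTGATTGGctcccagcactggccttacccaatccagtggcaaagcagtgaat
H2-Ob: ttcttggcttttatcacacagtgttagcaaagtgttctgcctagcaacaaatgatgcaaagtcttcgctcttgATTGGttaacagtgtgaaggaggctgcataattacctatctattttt

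Both H2-Aa and H2-Eb1 hold the longer Y box, starting 51 bases before the start in H2-Aa and 62 in H2-Eb1. Over the 250 bases before the start, searched on both strands, CTGATTGG occurred in 3 of the 7 promoters, the other being H2-Oa at 46 bases, and in 3.83% of 32851 mouse promoters. Its core ATTGG, which the longer form contains, occurred in all 7 and in 33.8% of promoters. H2-Eb1 holds a further core on the opposite strand, 35 to 31 bases before the start, which is not in capitals above. The palindrome TGACGTCA occurred in H2-Aa alone among the 7, 74 bases before the start, and in 1.55% of promoters. Its core TGACG was also found in H2-Aa alone, against 17.8% of promoters. For H2-DMa and H2-DMb2 the RefSeq starts lie at least 9664 and 1942 bases from the start of the counted gene model, so those windows are not the sequence before the counted exons. Only these exact letters were searched. Variants of the X2 box and the stretch that RFX binds were not, so a promoter without a match here may still hold an X box. These matches are a description of letters and say nothing of what was bound.

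Cd74, H2-Aa, H2-Ab1 and Ciita stood at between 17.1% and 20.3% of their Cre-negative mean in the Cre-positive libraries, and the DM chains at between 40.2% and 62.7%. H2-Eb1, the beta chain of the I-E molecule, did not follow: its mean was 85.7% of the Cre-negative mean and its groups overlapped. All values below are CPM over the tested genes with trimmed mean of M values (TMM) scaling unless counts are named. In bulk libraries, fewer cells of a class II-bearing type and less RNA per cell cannot be told apart.

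H2-Aa, the alpha chain of the I-A molecule (ENSMUSG00000036594, chr17:34282744-34287827 in mm10, minus strand), was at 2.77, 2.61 and 0.808 CPM in Cre-positive replicates 1, 2 and 3. In Cre-negative replicates 1, 2 and 3 it was at 16.3, 10.8 and 9.02 CPM. The groups did not overlap, with means of 2.06 ± 1.09 and 12.02 ± 3.79 CPM (SD, n = 3 each). The log2 fold change was -2.52 (SE 0.43), and between -2.80 and -2.16 with each library left out in turn.

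H2-Ab1, the beta chain that pairs with H2-Aa (ENSMUSG00000073421, chr17:34263209-34269418, plus strand), had values of 3.50, 4.603 and 2.33 CPM in the Cre-positive libraries. The Cre-negative libraries had 24.1, 13.1 and 14.1 CPM. Even the highest Cre-positive library was below every Cre-negative one, and the means were 3.48 ± 1.14 and 17.1 ± 6.10 CPM (SD, n = 3 each). The log2 fold change was -2.29 (SE 0.32), with a leave-one-out range of -2.54 to -1.96.

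Cd74 (ENSMUSG00000024610, chr18:60803848-60812646, plus strand), on another chromosome than the chains it escorts, was the most abundant of the 10 in Cre-negative cells. It was at 8.08, 10.05 and 3.42 CPM in the Cre-positive libraries and at 53.4, 31.3 and 31.4 CPM in the Cre-negative ones. The groups again did not overlap, with means of 7.18 ± 3.40 and 38.7 ± 12.7 CPM (SD, n = 3 each). Cre-positive replicate 3 was the lowest and Cre-negative replicate 1 the highest. The log2 fold change was -2.42 (SE 0.39).

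H2-Eb1 (ENSMUSG00000060586, chr17:34305883-34316199, plus strand) was at 8.30, 10.2 and 3.33 CPM in the Cre-positive libraries. Its Cre-negative values were 12.3, 7.27 and 5.94 CPM. Cre-positive replicates 1 and 2 lay between the highest and the middle Cre-negative library, and replicate 3 lay below all of them. The means were 7.28 ± 3.56 and 8.49 ± 3.34 CPM (SD, n = 3 each), and the log2 fold change was -0.22 (SE 0.43). That sign was not stable: the log2 fold change was 0.12 (SE 0.29) without Cre-positive replicate 3 and 0.15 (SE 0.45) without Cre-negative replicate 1.

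Ciita (ENSMUSG00000022504, chr16:10488178-10527564, plus strand) was scarce in both groups, with 6, 14 and 0 counts in the Cre-positive libraries and 55, 21 and 37 in the Cre-negative ones. In CPM these were 0.184, 0.620 and 0 against 2.21, 0.863 and 1.41, and the groups did not overlap. A count of 0 in Cre-positive replicate 3 allows up to 0.143 CPM. Summed over libraries there were 20 counts against 113, which after scaling was 17.6% of the Cre-negative level with an exact 95% interval of 10.3% to 28.4% for counting error only. The fitted log2 fold change of -2.47 (SE 0.79) depended on Cre-positive replicate 2 and was -3.74 without it. Of the 5254 bases of counted Ciita exons, 2.11% overlap exons of Dexi on the opposite strand, a gene with a mean of 1033 counts, and whether counting used the strand is not given in the sources used here.

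H2-DMa (ENSMUSG00000037649, chr17:34135182-34139101) encodes the alpha chain of the peptide exchanger DM. Its level was 5.41, 4.96 and 3.18 CPM in the Cre-positive libraries and 7.74, 7.15 and 6.74 CPM in the Cre-negative ones, with no overlap. Its Cre-positive mean of 4.52 ± 1.18 CPM was 62.7% of the Cre-negative mean of 7.21 ± 0.505 CPM (SD, n = 3 each), and the log2 fold change was -0.67 (SE 0.21).

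H2-DMb1 (ENSMUSG00000079547, chr17:34153072-34160223) encodes a beta chain of DM. It was at 1.44, 1.19 and 0.808 CPM against 3.89, 2.22 and 2.47 CPM, without overlap, and the mean stood at 40.2% of the Cre-negative mean. The log2 fold change was -1.30 (SE 0.31).

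H2-DMb2 (ENSMUSG00000037548, chr17:34143307-34151553), the other beta chain gene of DM, had 24, 5 and 7 counts in the Cre-positive libraries and 26 in each Cre-negative library. Here Cre-positive replicate 1 lay close to the Cre-negative libraries once scaled, at 0.738 CPM against 0.989 to 1.07, and replicates 2 and 3 were at 0.221 and 0.333 CPM. The log2 fold change of -1.19 (SE 0.42) was -1.89 without Cre-positive replicate 1. Of the 50-base words of the H2-DMb1 transcripts in GENCODE M21, 22.7% also occur in H2-DMb2, so reads from these words cannot be assigned to either gene with certainty.

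H2-Oa and H2-Ob, the chains of the DM inhibitor DO, which B cells are known to make, were close to absent. H2-Oa (chr17:34092340-34095234) had 1, 2 and 0 counts in the Cre-positive libraries and 3, 6 and 3 in the Cre-negative ones. Summed and scaled, it was at 24.8% of the Cre-negative level, with an exact 95% interval for counting error of 4.49% to 91.9%. H2-Ob (chr17:34238903-34245907) had 0, 1 and 2 counts against 6, 0 and 3, or 33.1% with an interval of 5.76% to 132% for counting error only, and the groups overlapped. Exons of H2-Oa overlap BC051537 on the opposite strand over 15.2% of their length, and that gene had a mean of 0.5 counts.

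**Figure D1:**
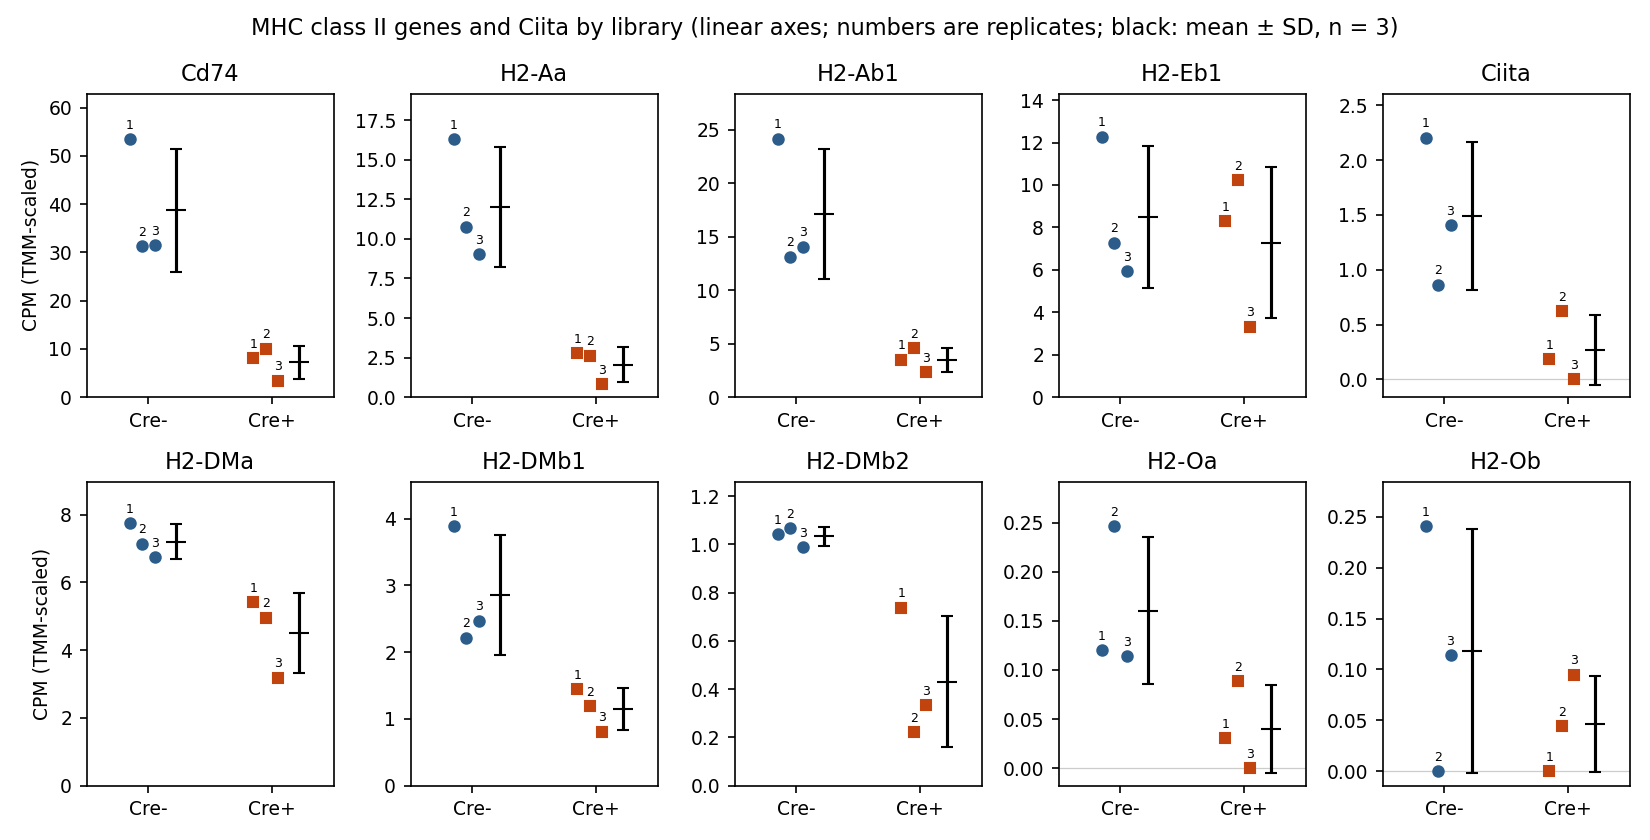
Level of each gene in every library, in TMM-scaled CPM on linear axes that differ between panels, with Cre-negative libraries as blue circles and Cre-positive libraries as orange squares, numbered by replicate; black marks are the mean ± SD of 3 libraries. The Cre-positive points lie below every Cre-negative point in 8 panels, while those of H2-Eb1 and H2-Ob overlap.

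Of the 10 genes, 8 passed the filter on low counts and entered the fit over 15525 genes. H2-Oa and H2-Ob did not, and Ciita and H2-DMb2 reached the count threshold of the filter in 1 Cre-positive and 3 Cre-negative libraries, so they passed through the group in which they were higher. In 8 of the 10, including the untested H2-Oa, every Cre-positive library was below every Cre-negative one. Among the 8 tested it was 7, where 13.8% of all tested genes showed that pattern and 28.0% were without overlap in either direction. By edgeR's adjusted p under 0.05, 1 of the 8, H2-Ab1, was called lower, where 0.110% of tested genes were called lower, 0.406% higher and 0.515% in either direction. Because this comparison had chosen the genes, nothing is read from either count.

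The same libraries held the extremes for most of the genes. Cre-positive replicate 3 was the lowest of its group for 8 of the 10 and Cre-negative replicate 1 the highest of its group for 8 of the 10. Within the males, 2 Cre-positive libraries against 1 Cre-negative library, the mean H2-Ab1 level was 30.8% of the Cre-negative level. Within the females, 1 Cre-positive library (replicate 3) against 2 Cre-negative libraries, it was 12.2%. The corresponding values were 24.98% and 6.38% for H2-Aa, 29.0% and 8.06% for Cd74, 59.5% and 25.4% for H2-DMb1, and 72.5% and 44.0% for H2-DMa. H2-Eb1 stood at 127% in the males and 36.5% in the females, so it alone of these 6 was above the Cre-negative level in a sex. Ciita was at 46.6% in the males and at 0% in the females, where the 1 Cre-positive library had 0 counts. With sex as a covariate over the 6 libraries, the log2 fold changes were -2.79 (SE 0.48) for H2-Aa, -2.31 (SE 0.38) for H2-Ab1 and -0.50 (SE 0.50) for H2-Eb1.

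The order of the genes, compared per kilobase of counted exon length, also differed between the groups. In Cre-negative cells Cd74 came first at 27.5 ± 9.04 CPM per kilobase (SD, n = 3). It was followed by H2-Ab1 at 10.5 ± 3.73, H2-Eb1 at 7.21 ± 2.84 and H2-Aa at 6.41 ± 2.02 CPM per kilobase, whose library values overlapped between neighbours in this order. H2-DMa at 4.39 ± 0.308 CPM per kilobase lay below every Cre-negative value of H2-Aa, and H2-DMb1 at 1.94 ± 0.610 below every value of H2-DMa. H2-DMb2 at 0.604 ± 0.0234 and Ciita at 0.284 ± 0.129 CPM per kilobase came next, without overlap between them, and the DO chains were last.

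In Cre-positive cells, by the deposited exon lengths, H2-Eb1 had the highest mean, 6.18 ± 3.02 CPM per kilobase (SD, n = 3), followed by Cd74 at 5.09 ± 2.41 and H2-DMa at 2.75 ± 0.717. H2-Ab1 at 2.12 ± 0.695 and H2-Aa at 1.10 ± 0.581 CPM per kilobase came after the DM alpha chain. Neighbours in this order overlapped from H2-Eb1 down to H2-DMb1, at 0.777 ± 0.217 CPM per kilobase. The Cre-positive order depended on the length used: with the exon lengths of GENCODE M21, Cd74 at 4.28 CPM per kilobase came before H2-Eb1 at 3.75, H2-Ab1 at 1.35 before H2-DMa at 1.31, and H2-DMb1 at 0.684 before H2-Aa at 0.543. The Cre-negative order of means was the same with either length, but with GENCODE lengths H2-DMa (1.95 to 2.25) and H2-DMb1 (1.32 to 2.31 CPM per kilobase) overlapped. Since a library high in 1 of these genes was often high in the others, ratios within a library are given next.

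H2-Eb1 amounted to 0.706, 0.769 and 0.586 times H2-Ab1 per kilobase in Cre-negative replicates 1, 2 and 3. In the Cre-positive libraries the ratio was 3.29, 3.09 and 1.99, so that the smallest Cre-positive ratio was above the largest Cre-negative one. The mean ratio of 2.79 ± 0.702 was 4.06 times the Cre-negative mean of 0.687 ± 0.0929 (SD, n = 3 each).

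Against Cd74, H2-Eb1 per kilobase stood at 1.23, 1.22 and 1.16 in the Cre-positive libraries and at 0.275, 0.278 and 0.226 in the Cre-negative ones. Both sets of values vary little: 1.204 ± 0.0349 and 0.260 ± 0.0293 (SD, n = 3 each), a 4.63-fold difference. Against H2-Aa the ratio was 4.77, 6.23 and 6.55 in Cre-positive cells and 1.199, 1.07 and 1.05 in Cre-negative cells. H2-Eb1 thus made up 66.1%, 67.4% and 60.4% of the summed per-kilobase level of the 3 antigen-presenting chains in the Cre-positive libraries. In the Cre-negative libraries its share was 30.8%, 30.9% and 27.3%. With GENCODE M21 lengths the shares were 67.1%, 68.0% and 60.5% against 31.6%, 32.0% and 28.0%, and H2-Eb1 to Cd74 was 0.887, 0.879 and 0.840 against 0.198, 0.201 and 0.163.

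Between Cd74, H2-Aa and H2-Ab1, which stood near 20% of the Cre-negative level, the ratios to H2-Ab1 did not separate the groups. Cd74 to H2-Ab1 was 2.68, 2.53 and 1.71 in the Cre-positive libraries and 2.57, 2.76 and 2.59 in the Cre-negative ones. H2-Aa to H2-Ab1 was 0.690, 0.496 and 0.303 against 0.589, 0.715 and 0.560. In both ratios Cre-positive replicate 3 was the lowest library.

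H2-DMa and H2-DMb1 lay between these genes and H2-Eb1. No ratio was computed for the third DM chain, H2-DMb2, which had 24, 5 and 7 counts in the Cre-positive libraries. H2-DMa to H2-Ab1 was 1.54, 1.07 and 1.36 in Cre-positive cells and 0.320, 0.542 and 0.477 in Cre-negative cells, a 2.97-fold difference in means without overlap. H2-DMb1 to H2-Ab1 was 0.457, 0.288 and 0.384 against 0.178, 0.187 and 0.195, a 2.02-fold difference in means, also without overlap. The ratio of H2-Eb1 to H2-DMa overlapped between the groups, at 2.14, 2.87 and 1.46 against 2.21, 1.42 and 1.23. The ratios follow from the same comparison that chose the genes and carry no test.

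**Figure D2:**
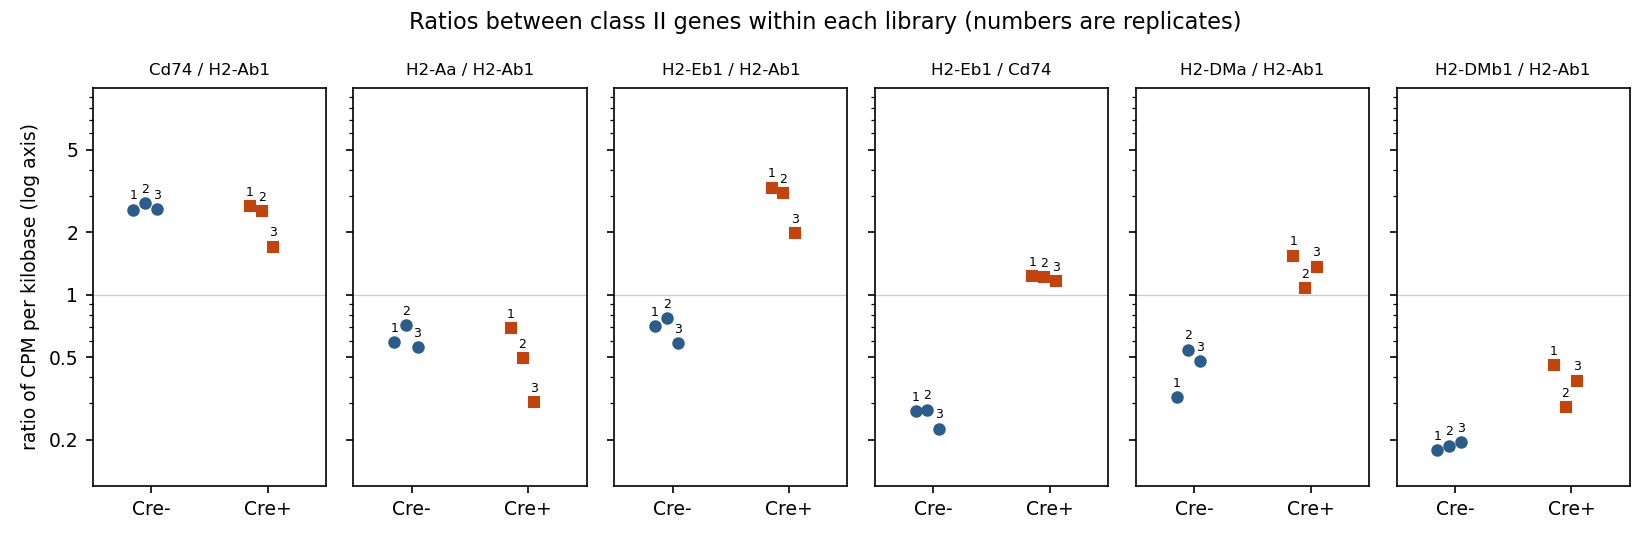
Ratio of CPM per kilobase between pairs of class II genes in each library, on a shared log axis, with Cre-negative libraries as blue circles and Cre-positive libraries as orange squares, numbered by replicate. Cd74 and H2-Aa relative to H2-Ab1 overlap between groups, while H2-Eb1 to H2-Ab1 runs from 1.99 to 3.29 in Cre-positive and from 0.586 to 0.769 in Cre-negative libraries.

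The partner chain of H2-Eb1 was not detected. H2-Ea-ps, the pseudogene annotated at the I-E alpha locus, had 0 counts in all 6 libraries, as had the further beta chain gene H2-Eb2 and the pseudogene H2-Pa. Depending on the library, a count of 0 allows up to 0.0922 to 0.143 CPM. Mouse strains of some MHC haplotypes lack a working I-E alpha gene and then show no I-E at the cell surface. Whether these mice are of such a haplotype is not in the labels used here.

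The 8 class II genes on chromosome 17 lie within 223.859 kb, from H2-Oa to the end of H2-Eb1, with 10 other annotated genes between them, 5 of which were tested. Among all 15525 tested genes, 1596 were higher and 1317 lower at an unadjusted edgeR p under 0.05. Of the 5 neighbours, none passed the edgeR threshold, and 2 had an unadjusted p under 0.05. These were Tap1 and Tap2, the peptide transporter of MHC class I, which had higher values in every Cre-positive library. Tap1 was at 58.0, 47.2 and 36.5 CPM against 28.4, 36.0 and 30.3 CPM, a log2 difference of 0.58 (SE 0.18) at an edgeR adjusted p of 0.173. For Tap2 the Cre-positive values were 15.8, 12.5 and 15.1 CPM and the Cre-negative values 7.82, 9.86 and 8.22 CPM, a log2 difference of 0.75 (SE 0.14) at an edgeR adjusted p of 0.0780. DESeq2 called both, and edgeR called Tap1 when Cre-positive replicate 3 was left out. The immunoproteasome subunits Psmb8 and Psmb9 differed by 0.43 (SE 0.26) and 0.06 (SE 0.43) on the log2 scale, the former being 0.048 without Cre-positive replicate 1, and the chromatin reader Brd2, next to the DM genes, had -0.05 (SE 0.07). H2-Aa and H2-Eb1, next to each other among the tested genes, had log2 fold changes of -2.52 and -0.22.

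**Figure D3:**
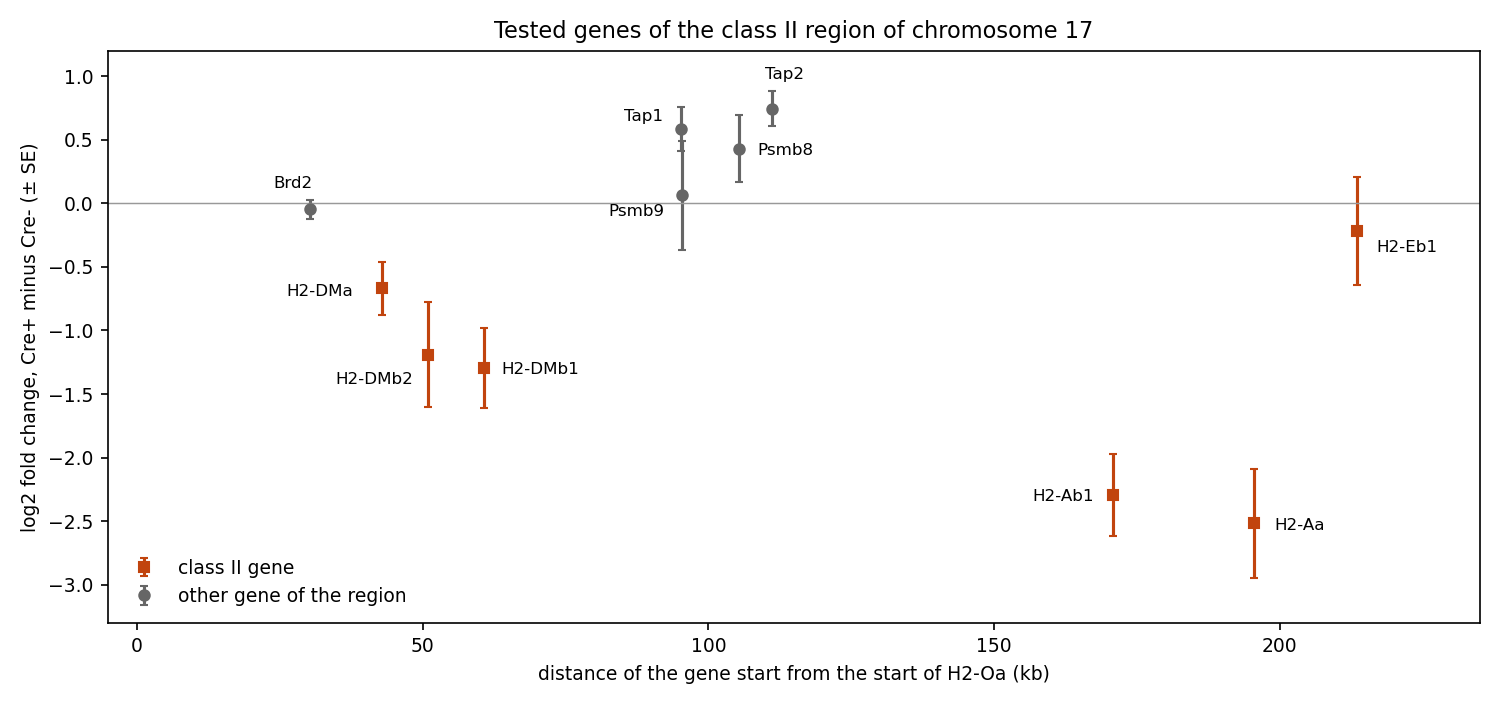
Log2 fold change (Cre-positive minus Cre-negative, ± SE) of the 11 tested genes of the class II region against the distance of the gene start from the start of H2-Oa in kb, with class II genes as orange squares and other genes as grey circles. H2-Ab1 and H2-Aa lie below -2, the DM genes between -1.30 and -0.67, and H2-Eb1, at the right end, at -0.22.

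The factors that work with Ciita on class II promoters showed no called change. All 7 were tested: 0 rose and 0 fell by edgeR, 1 had an unadjusted p under 0.05, and their median log2 fold change was -0.05, beside a median over all tested genes of -0.0048. Nfya, a DNA-binding subunit of NF-Y, was at 34.8, 36.6 and 29.8 CPM against 42.2, 36.1 and 44.2 CPM, a log2 fold change of -0.28 (SE 0.11) with overlapping groups (edgeR adjusted p = 0.247). Rfx5 and Rfxap, subunits of RFX, stood at 0.07 (SE 0.09) and -0.14 (SE 0.10) on the log2 scale, the former turning to -0.04 under total-count scaling, which moved the median of all genes to -0.12. Creb1 had -0.11 (SE 0.07).

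Of 14 genes of interferon-gamma signalling and Ciita regulation, 13 were tested, and 0 were called in either direction by edgeR. Unadjusted, 1 higher and 1 lower gene had a p under 0.05, and the median log2 fold change was 0.15. Usf1, which binds the interferon-responsive Ciita promoter, was at 34.8, 35.2 and 38.4 CPM in the Cre-positive libraries and 43.9, 42.3 and 43.4 CPM in the Cre-negative ones. The groups did not overlap, and edgeR put the log2 fold change at -0.26 (SE 0.07) with an adjusted p of 0.156. Prdm1, a repressor of Ciita, was higher by 0.44 (SE 0.16) on the log2 scale, at an edgeR adjusted p of 0.221, and by 0.24 without Cre-positive replicate 3.

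The receptor subunit Ifngr1 was at 25.6, 19.1 and 83.7 CPM against 17.6, 21.6 and 21.05 CPM, so its log2 fold change of 1.09 (SE 0.52), at an edgeR adjusted p of 0.309, rested on Cre-positive replicate 3 and was 0.16 without it. Jak1, the kinase bound to the receptor, had a log2 fold change of 0.15 (SE 0.08), or 0.09 without Cre-negative replicate 2. The ligand Ifng itself had 1 count in 1 library of each group and 0 in the others.

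The endosomal enzymes and turnover factors of class II had no call among 9 tested genes, and 4 of them had an unadjusted p under 0.05, all higher in Cre-positive cells, with a median log2 fold change of 0.19 for the list. Lgmn, the lysosomal asparaginyl endopeptidase, was at 59.3, 42.6 and 51.8 CPM against 33.6, 38.6 and 38.1 CPM. On the log2 scale this was 0.48 (SE 0.13), at an edgeR adjusted p of 0.146, and DESeq2 called it. Ctss, the protease that trims the invariant chain in antigen-presenting cells, had an estimate of 0.37 (SE 0.12) and an edgeR adjusted p of 0.188, or 0.23 without Cre-positive replicate 1. The lysosomal protease Ctsd had 0.47 (SE 0.20), which was 0.20 without Cre-positive replicate 3, and March8, a ubiquitin ligase of membrane proteins including class II, had 0.45 (SE 0.14), which was 0.27 without that library.

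Of 7 costimulatory genes 5 were tested, with 0 calls by edgeR, 1 unadjusted p under 0.05 and a median log2 fold change of 0.13. Icosl, a ligand that T cells read through ICOS, was at 6.52, 5.001 and 11.97 CPM against 3.37, 4.11 and 5.02 CPM, an estimate on the log2 scale of 0.90 (SE 0.33; edgeR adjusted p = 0.222) that was 0.47 without Cre-positive replicate 3. Cd86 and Cd40, which mark activated antigen-presenting cells, had -0.36 (SE 0.27) and -0.39 (SE 0.47), and Cd274 had 0.38 (SE 0.33). Without Cre-negative replicate 2 those of Cd86 and Cd40 were -0.18 and 0.0056, and Cd274 was at 0.098 without Cre-positive replicate 1. Over all these lists and the neighbouring genes, 39 of 49 genes were tested and none was called by edgeR. By edgeR 10 had an unadjusted p under 0.05, of which 8 were higher and 2 lower. Among all 15525 tested genes, 1596 were higher and 1317 lower at that p, so nothing is read from these counts. DESeq2 called 3 of the list genes, beside 837 of all genes, and limma-voom called none, beside 66.

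**Figure D4:**
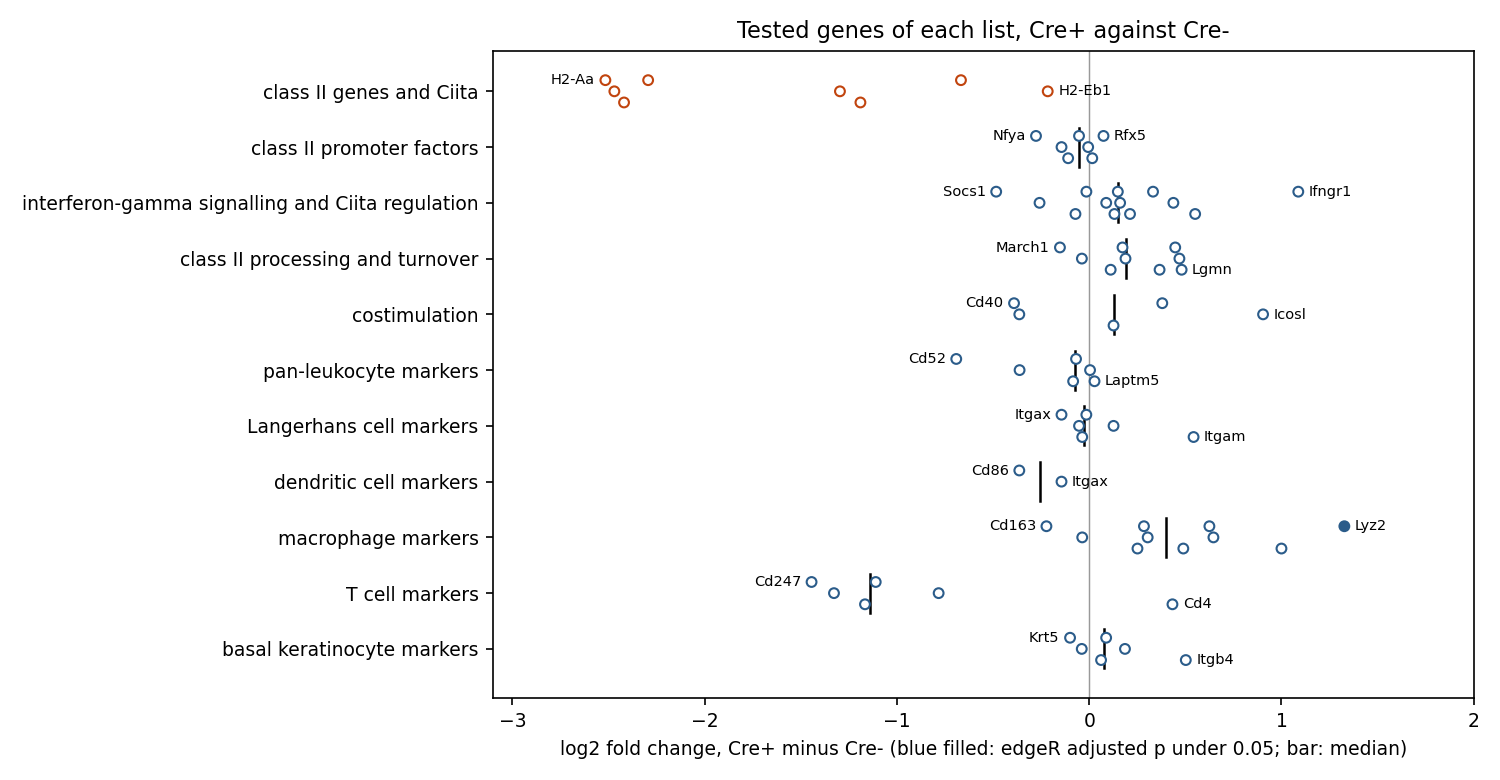
Log2 fold change (Cre-positive minus Cre-negative) of each tested gene in the lists, 1 circle per gene, with the class II genes and Ciita in orange at the top, black bars at the median of each other list and the outermost genes named. The blue filled circle is Lyz2, the gene among the other lists with an edgeR adjusted p under 0.05; the promoter factors lie between -0.28 and 0.07 while H2-Aa lies at -2.52.

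Markers of cells that could carry class II in the sort were read in the same libraries. Their counts of unadjusted p under 0.05 stand beside 1596 higher and 1317 lower genes among all 15525 tested by edgeR. Their calls stand beside 63 higher and 17 lower genes called by edgeR among all. DESeq2 called 554 higher and 283 lower. Cd207, the langerin gene that defines Langerhans cells, had 2, 6 and 0 counts in the Cre-positive libraries and 16, 9 and 9 in the Cre-negative ones, too few to be tested, and the groups did not overlap. The summed level of the 7 Langerhans cell markers overlapped, at 80.1 to 115 CPM against 94.3 to 96.4 CPM. Of the 7, Mfge8 was the most abundant, with a log2 fold change of -0.02 (SE 0.15). Cd207 added at most 0.642 CPM to the sum in any library, so the sum cannot show a change in Cd207. Csf1r, at 24.8 to 35.5 CPM over the 6 libraries, is also on the macrophage list. Of the 6 Langerhans markers tested, none was called by edgeR, DESeq2 or limma-voom and 1 had an unadjusted p under 0.05. That gene, Itgam, the CD11b gene, was higher in the Cre-positive libraries, unlike Cd207, at 19.7, 14.96 and 11.6 CPM against 10.8, 11.5 and 9.55 CPM, a log2 fold change of 0.54 (SE 0.19) with an edgeR adjusted p of 0.214.

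Of 10 dendritic cell markers 2 were tested, with no call and no unadjusted p under 0.05, and their summed level was 4.32 to 9.47 CPM against 7.52 to 9.35 CPM. Flt3, the receptor by which dendritic cells develop, was untested at 0, 1 and 3 counts against 19, 11 and 8, and was the 1 dendritic marker of the 10 without overlap between the groups. It added at most 0.762 CPM to the sum in any library, where Itgax alone was at 2.28 to 6.52 CPM, so the sum cannot show a change in Flt3. Other untested members overlapped, such as Cd209a with 8, 7 and 9 counts against 7, 8 and 6 and Clec10a with 20, 9 and 3 counts against 6, 11 and 8. Itgax, the CD11c gene shared with the Langerhans list, was at 6.52, 3.85 and 2.28 CPM against 5.98, 3.53 and 4.605 CPM. Of 5 B cell markers 0 were tested. Cd79a, a component of the B cell receptor, had 3, 4 and 2 counts against 0, 1 and 1. Cd22, with 12, 5 and 5 counts against 0, 4 and 1, was likewise higher without overlap. Cd79b overlapped, with 12, 8 and 6 counts against 9, 4 and 12. The 5 summed to 0.618 to 0.861 CPM in Cre-positive and 0.370 to 0.571 CPM in Cre-negative cells, from few counts.

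The general leukocyte level did not separate the groups. Ptprc, the CD45 gene, was at 12.2, 8.32 and 7.84 CPM against 10.6, 9.28 and 8.52 CPM, and the 6 pan-leukocyte markers summed to 54.9 to 84.3 CPM against 75.7 to 78.8 CPM. None of the 6 was called by edgeR, DESeq2 or limma-voom, and 1 had an unadjusted p under 0.05, lower. The sums of the macrophage markers and of the T cell markers did separate them, as did the low sum of the B cell markers. The 10 macrophage markers summed to 181 to 233 CPM in Cre-positive and 145 to 162 CPM in Cre-negative cells, the opposite direction to most class II genes, and 1 of the 10 rose by edgeR while 6 had an unadjusted p under 0.05, all higher. That gene was Lyz2, the lysozyme of phagocytes, at 16.6, 11.9 and 15.9 CPM against 5.01, 6.16 and 6.55 CPM, which edgeR put at a log2 fold change of 1.33 (SE 0.17) with an adjusted p of 0.0368. The adjusted p of Lyz2 was 0.0662 under total-count scaling, 0.0636 with sex as a covariate and between 0.0196 and 0.215 with 1 library left out, where it was under 0.05 only without Cre-positive replicate 3. DESeq2 called 4 of the 10, all higher. The 2 with a negative log2 fold change, Csf1r (-0.04, SE 0.14) and Cd163 (-0.22, SE 0.47), overlapped between the groups. C1qb, a complement chain and the most abundant of the 10, was at 41.0, 34.4 and 32.5 CPM against 27.3, 31.1 and 30.3 CPM, a log2 fold change of 0.28 (SE 0.11).

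The 7 T cell markers summed to 6.70 to 8.63 CPM in Cre-positive and 13.1 to 16.8 CPM in Cre-negative cells. Of the 6 tested, 0 were called by edgeR, 5 had an unadjusted p under 0.05, all lower, and DESeq2 called 3 lower. The other 1, Cd4, went the other way with overlapping groups, at a log2 fold change of 0.43 (SE 0.26). Its values were 1.17, 1.59 and 1.05 CPM against 0.923, 0.821 and 1.07 CPM. Cd3e, a chain of the T cell receptor complex, was at 2.18, 1.68 and 1.95 CPM against 3.41, 3.29 and 3.35 CPM, an estimate on the log2 scale of -0.78 (SE 0.18; edgeR adjusted p = 0.109). The most abundant of the 7, Cd3g, was at 2.52, 3.67 and 2.09 CPM against 6.98, 5.05 and 5.86 CPM, or -1.11 (SE 0.24) on the log2 scale. The sums of the fibroblast and endothelial markers followed single libraries and not the groups. The fibroblast sum was 1368 CPM in Cre-positive replicate 1 and 811 CPM in Cre-negative replicate 3, and from 176 to 288 CPM in the other 4. The endothelial sum was likewise highest in those libraries, at 21.3 and 19.3 CPM. So was the endothelial receptor gene Kdr, at 4.79 and 5.48 CPM, and from 0.475 to 3.20 CPM in the others. Not every marker did so: Dcn of the fibroblast list was at 126, 114 and 136 CPM against 100, 110 and 141 CPM. Cldn5 of the endothelial list was at 1.08, 0 and 0.190 CPM against 0.201, 1.56 and 3.16 CPM. Neither list had a gene called by edgeR, DESeq2 or limma-voom or with an unadjusted p under 0.05. The 6 basal keratinocyte markers summed to 15345 to 16910 CPM in Cre-positive and 14555 to 16765 CPM in Cre-negative cells, with no call by edgeR, 1 unadjusted p under 0.05 and 1 call by DESeq2, both higher. Krt5, the most abundant of them, was at 7656 to 9075 CPM over the 6 libraries. The part of Langerhans, dendritic, macrophage and T cells in the levels of the class II genes was not tested.

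By profile over the 6 libraries, the genes most like the mean of the standardized profiles of Cd74, H2-Aa and H2-Ab1 were Med12l, Grm4, Slc6a2, Ppp1r7 and Zfp512, with Pearson r from 0.994 to 0.998. This likeness is a description over 6 points that share libraries and fall into the groups compared, and 256 of the 13874 genes with a mean of at least 1 CPM reached an r of 0.95. Grm4, a glutamate receptor gene, came nearest in size as well, at 1.72, 1.99 and 1.05 CPM against 8.22, 4.89 and 4.68 CPM. Slc6a2, the noradrenaline transporter gene, was at 7.56, 8.01 and 6.08 CPM against 11.8, 9.94 and 10.3 CPM.

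The r of the other class II genes with the same mean profile was 0.975 for H2-DMb1, 0.955 for H2-DMa, 0.945 for Ciita, 0.780 for H2-DMb2 and 0.587 for H2-Eb1. H2-Eb1 followed the class II genes within each group, with the highest Cre-negative value in replicate 1 and the lowest Cre-positive value in replicate 3, and departed from them between the groups.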

How the data were processed

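RNA-seq of 3 Cre-positive and 3 Cre-negative libraries of CD49f-positive epidermal cells was read from the table of raw counts per gene that the authors deposited, which also gives the exon length of each gene. Per the submitters' processing notes, GSNAP served for alignment and featureCounts for counting on mm10. No version, strand setting or treatment of shared reads is stated in those notes or the labels. Libraries held 22948779 to 31718094 counts, and 3 counts correspond to 0.0922 to 0.143 CPM, for counting error only. Symbols were matched by identifier for 37607 of 38924 genes.

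Genes were kept by filterByExpr (minimum count 10), which left 15525, scaled by TMM and tested two-sided by quasi-likelihood in edgeR 4.0.16 (R 4.3.3). P-values were adjusted over the 15525 genes by the method of Benjamini and Hochberg, and 0.05 was the threshold. CPM are counts over the tested-gene total times the TMM factor. CPM per kilobase uses the deposited length. The fits were tested on simulated data. Alternatives were DESeq2 size factors, total-count scaling, DESeq2 1.42.0, voom of limma 3.58.1, 2 other filters, sex as a covariate, each library left out in turn and exon lengths of GENCODE M21. Profile likeness was computed on log2 CPM with a prior count of 2.

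The members, the gene lists and the tests were chosen with earlier results of these data known. The genes named were all 10 members; in each pathway list up to 4 tested genes with the smallest p and every gene past the threshold; the defining and the most abundant marker of each cell type; the 5 genes most alike in profile; and Rnaseh2b. Neighbouring genes of the class II region formed a further list. Psmb9, Flt3, Itgam, Csf1r, Cd163, Cd4, Cd209a, Clec10a, Cd22, Cd79b, Dcn, Cldn5, Ifng, H2-Ea-ps, H2-Eb2 and H2-Pa were named after their values were seen. A gene that the rule takes is not reported here. Lists held promoter factors, interferon-gamma signalling, class II processing, costimulation and markers of leukocytes, Langerhans cells, dendritic cells, macrophages, B cells, T cells, fibroblasts, endothelial cells and basal keratinocytes. Promoter sequences are from RefSeq, GRCm38.p6; those of H2-Ab1, Ciita and Cd74 were not used here.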

Additional observations from a re-analysis of the deposited data

How the results depend on the processing

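The log2 fold changes of Cd74, H2-Aa, H2-Ab1, H2-DMa, H2-DMb1, H2-DMb2 and Ciita stayed negative under every alternative that gave a value; that of H2-Eb1 ran from -0.53 to 0.15 with each library left out, at 0.12 without Cre-positive replicate 3 and 0.15 without Cre-negative replicate 1. GENCODE M21 lengths left the Cre-negative order of mean levels per kilobase as it was, changed the Cre-positive order, and lowered Cre-negative levels, for example of H2-DMa from 4.39 to 2.09 and of H2-Aa from 6.41 to 3.17 CPM per kilobase. Against 80 genes called over the whole table, there were 41 under total-count scaling, 837 with DESeq2, 142 without the filter, 42 with sex as a covariate and between 0 and 422 with 1 library left out (422 without Cre-positive replicate 3; 0 without Cre-negative replicate 1 or 2). Of the context genes, against 0 called, DESeq2 called 3 and leaving out 1 library gave 0 to 1. The Y box count of 3 became 7 with the core. No paired analysis was possible because the labels carry no replicate numbers shared between the groups.

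Some log2 fold changes of other genes changed sign, none of them larger in size than its SE, and the cause was not tested. Under total-count scaling these were Rfx5 (-0.037), Laptm5 (-0.078), Ptprc (-0.095) and Krt14 (-0.055); with sex as a covariate Laptm5 (-0.030), Ptprc (-0.064), Col3a1 (-0.24) and Pecam1 (-0.10). With voom, Col1a1 went from 0.86 (SE 1.36) to -0.013 and Col3a1 from 0.40 (SE 1.15) to -0.36. With each library left out, the log2 fold changes ran from -0.79 to 0.0056 for Cd40, -0.18 to 0.091 for Mfge8, -0.61 to 0.15 for Itgax, -0.076 to 0.12 for Laptm5, -0.23 to 0.12 for Ptprc, -2.27 to 2.43 for Col1a1, -2.11 to 1.53 for Col3a1, -1.49 to 1.14 for Pecam1 and -0.024 to 0.13 for Krt14.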
